A study of Mus musculus with 12 samples.

Results

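The collagen genes are taken here as every protein-coding row whose gene name is Col, a number, the letter a and a number, which names 1 collagen chain each. The rule found 39 genes among the 24396 rows of the in vivo table and 31 among the 22035 rows of the in vitro table, and all 31 were in both. They are described in 4 classes, with 11 fibrillar chains, 6 chains of the basement membrane collagen Col4, 6 chains of Col6 and 16 chains of other types. The samples were of 4T1 cells, an established line of mouse mammary carcinoma, and the 12 libraries form 4 groups of 3. Levels in lung below are those of cells sorted from lung, in which markers of other cell types were present too.

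In both in vivo groups, Balb/c mice received 5000 4T1 cells labelled with the fluorescent protein mNeonGreen through a tail vein. After 4 weeks in the host, 100000 4T1 cells were sorted from lung for each sample. The hosts were young mice for 1 group and old mice for the other, and the labels give no age in weeks or months. Both in vitro groups were cultured 4T1 cells that, from 24 h after seeding, spent 72 h in serum-free RPMI-1640 with 25% interstitial fluid extract (IFE), prepared from lungs of young or of old mice that carried 4T1 metastases. The in vitro titles also hold the abbreviation shNT, which the protocols leave unexplained. Whether animals or fluids were pooled is not said, nor whether the 3 libraries of a group came from separate animals or cultures, so p-values measure the spread between these libraries only, which may be technical. The groups serve 2 comparisons, old against young in the lung and old against young IFE in culture, and the difference between them.

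Collagens are proteins of the extracellular matrix in which 3 chains wind into a triple helix. Fibrillar collagens assemble into the tensile fibrils of connective tissue, Col4 forms the sheet-like network of basement membranes, and Col6 forms beaded filaments between cells and fibrils. In lung most fibrillar collagen is made by fibroblasts, while epithelial and endothelial cells contribute to basement membranes. Carcinoma cells can make collagens as well.

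The in vivo libraries held 11679046 to 15053144 counts each and the in vitro libraries 12299004 to 18129164, where the counts of in vivo young replicate 3 are reads recovered from its normalized values. In culture, old IFE replicate 3 stood apart, and the chi-square per degree of freedom between it and the other old IFE libraries was 8.12 and 9.44, against 2.95 to 3.40 for the other replicate pairs in culture. The 8 epithelial markers of 4T1 (Epcam, Cdh1, keratins and claudins) were expressed in every group. They summed to 3329 to 3476 CPM in young and 4416 to 4515 CPM in old lungs, where 7 of the 8 rose and Krt19 fell. In culture they summed to 2317 to 2333 CPM with young IFE and 2287 to 2437 CPM with old IFE. CPM are counts scaled to a common library size and composition within each setting. Markers of other cell types were present in the sorted lung libraries. The counts of all these marker lists stand against the 19.6% of all 14096 genes tested in vivo that rose in old, and the 20.4% that fell. Rises and falls are at an adjusted p under 0.05 in edgeR's quasi-likelihood test. Of the macrophage and monocyte markers, 13 of 13 tested fell in old, and the list of 16 summed to 1002 to 1033 CPM in young and 133 to 135 CPM in old, while Marco, Siglecf and Ly6c2 were under 1 CPM and not tested. Of the alveolar and airway epithelial markers, 7 of 12 tested rose and 1 fell, and the list of 13 summed to 39.4 to 41.0 CPM in young and 95.4 to 108 CPM in old. Of the endothelial markers, 3 of 11 rose and 1 fell, a called share near the 40.0% of all genes tested (sum 30.0 to 33.3 CPM in young, 35.5 to 39.0 CPM in old), and the 4 mesothelial markers stayed under the filter on low counts. In culture the macrophage list summed to 7.56 to 10.6 CPM with young IFE and 9.04 to 11.1 CPM with old IFE. In bulk RNA, fewer cells of a type and less RNA per cell cannot be told apart.

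Per length, in the authors' FPKM (fragments scaled for gene length and library size), Col6a1 was the most abundant collagen of the young-lung libraries, at 144 ± 2.57 FPKM (SD, n = 3). Col18a1 came next at 112 ± 1.76 FPKM. Col4a1, Col7a1 and Col4a2 followed at 54.2, 40.2 and 34.2 FPKM. In the old-lung libraries the first 2 places were exchanged, with Col18a1 at 137 ± 4.48 and Col6a1 at 110.4 ± 2.1 FPKM, and Col4a1 stayed the third. The genes of the main fibrillar collagens lay well below these, with Col1a1 at 8.37 ± 0.938 FPKM in young and 14.5 ± 1.23 FPKM in old. Col5a1, a chain of the minor fibrillar collagen V, was the most abundant fibrillar chain in both groups (30.0 ± 0.269 and 21.5 ± 1.13 FPKM).

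**Figure D1:**
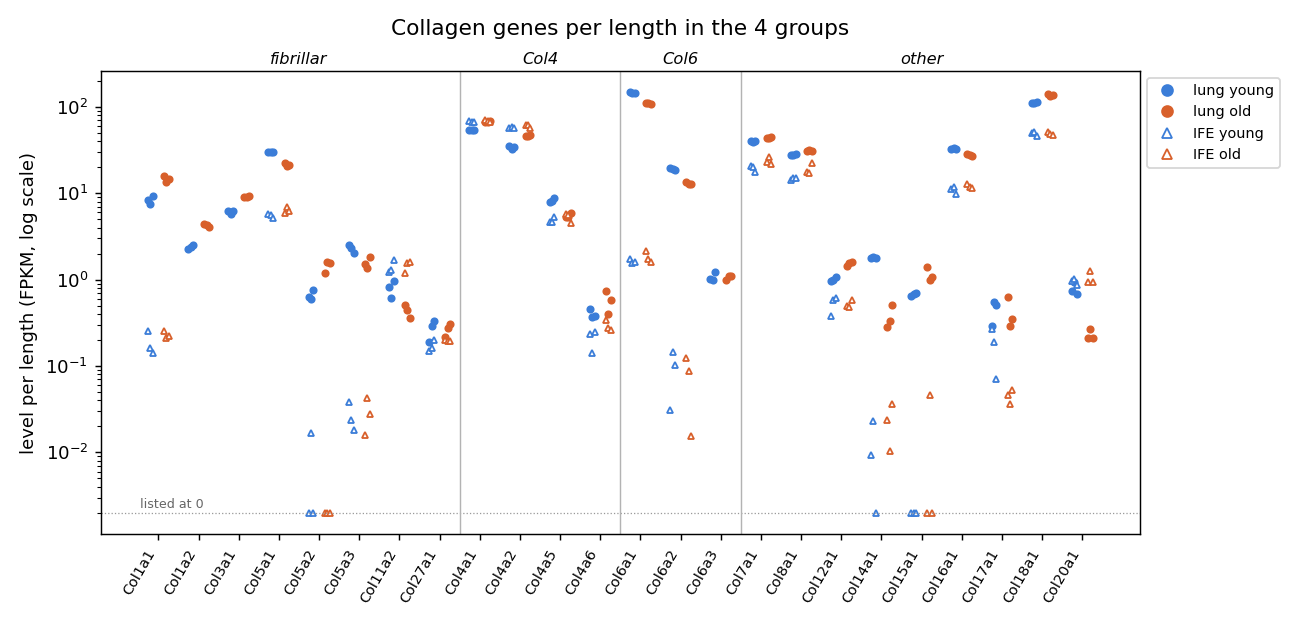
Level per length (FPKM, log scale) of the 24 collagen genes with a mean of 2 CPM or more in vivo, by class, in each library of the 4 groups (filled circles are lung, open triangles are IFE culture, blue is young and orange is old); symbols on the dotted line are libraries listed at 0, and genes without triangles have no row in the in vitro table. Col6a1, Col6a2, Col1a1 and Col5a3 sat far lower in culture than in lung, while the Col4a1 and Col4a2 levels of the 2 settings were close.

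Of the 39 collagen genes, 29 passed edgeR's filter on low counts in vivo. Between old and young lungs 20 of these passed edgeR's quasi-likelihood test at an adjusted p under 0.05, which is what a call means throughout, 11 higher and 9 lower in old, and 9 were not called. Over all 14096 genes tested the called share was 40.0%, with 19.6% higher and 20.4% lower. The groups did not overlap for 20 of the 29 collagen genes, against 47.7% of all genes tested. The median log2 fold change was 0.12 for the 29 and 0.0019 for all genes tested. By class, the fibrillar chains split into 4 higher, 3 lower and 3 not called, Col4 into 2 higher, 1 lower and 2 not called, Col6 into 2 lower and 1 not called, and the other types into 5 higher, 3 lower and 3 not called.

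**Figure D2:**
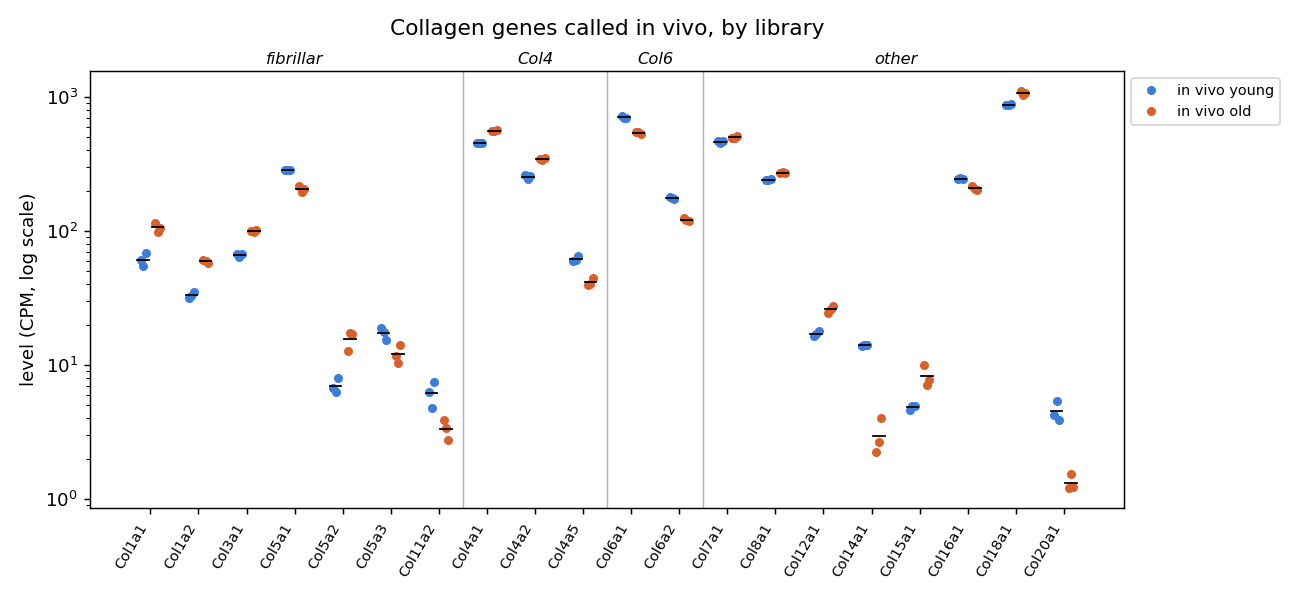
Level (CPM, log scale) of the 20 collagen genes called between old and young lungs, by class; each dot is a library (blue young, orange old) and each black line a group mean of 3 libraries. Col1a1, Col1a2, Col3a1 and Col5a2 were higher in all old libraries, and Col6a1, Col6a2, Col5a1 and Col4a5 were lower in all of them.

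The chains of the major interstitial collagens I and III were all higher in the old-lung libraries. Col1a1 (ENSMUSG00000001506, chromosome 11, 94827050 to 94843868, plus strand), in the files' coordinates whose build is not given, encodes the chain present in a pair in each collagen I molecule. It stood at 60.6, 54.8 and 68.4 CPM in the 3 young libraries and at 116, 98.0 and 106 CPM in the 3 old ones. Every old library was above every young one, and the log2 fold change was 0.79 ± 0.07 (SE, edgeR adjusted p = 1.13e-07). Col1a2 (ENSMUSG00000029661, chromosome 6, 4504814 to 4541544, plus strand) encodes the other collagen I chain. Its level was 31.6, 32.7 and 34.9 CPM in young and 60.9, 59.5 and 57.3 CPM in old, again without overlap, for a log2 fold change of 0.84 ± 0.07 (SE, edgeR adjusted p = 1.3e-19). The FPKM ratio of Col1a1 to Col1a2 was 3.5 ± 0.29 in young and 3.41 ± 0.253 in old (SD, n = 3 each), a difference smaller than either SD. The size of this ratio depends on the authors' gene lengths, 6563 bases for Col1a1 and 12426 for Col1a2. Col3a1 (ENSMUSG00000026043, chromosome 1, 45350698 to 45388866, plus strand), the single chain of collagen III, went from 67.2, 63.6 and 67.8 CPM to 100.3, 98.9 and 102 CPM. The old libraries lay above all the young ones, with a log2 fold change of 0.60 ± 0.05 (SE, edgeR adjusted p = 8.68e-20).

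The collagen V chains moved in opposite directions. Collagen V co-assembles with collagen I and helps to set fibril diameter. Col5a1 (ENSMUSG00000026837, chromosome 2, 27776437 to 27929526, plus strand) was at 287, 284 and 287 CPM in young and at 217, 196 and 204 CPM in old libraries. All old values were lower, by a log2 fold change of -0.48 ± 0.03 (SE, edgeR adjusted p = 5.46e-25). Col5a2 (ENSMUSG00000026042, chromosome 1, 45413481 to 45542442, minus strand) was far less abundant and rose from 6.72, 6.33 and 8.01 CPM to 12.8, 17.4 and 16.9 CPM. No old library reached down to the young range, and the log2 fold change was 1.16 ± 0.14 (SE, edgeR adjusted p = 7.26e-12). The FPKM ratio of Col5a1 to Col5a2 was 46.2 ± 5.27 in young and 15.1 ± 3.46 in old (SD, n = 3 each). Col5a3, a chain with a more restricted expression, was at 18.9, 17.8 and 15.3 CPM in young and at 11.6, 10.4 and 14.0 CPM in old, all lower, with a log2 fold change of -0.53 ± 0.12 (SE, edgeR adjusted p = 0.00015). Col11a2, a chain of the cartilage collagen XI, fell from 6.26, 4.76 and 7.48 CPM to 3.88, 3.41 and 2.77 CPM without overlap, by -0.88 ± 0.21 (SE, edgeR adjusted p = 0.000317) on the log2 scale.

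The other fibrillar chains were scarce. Col27a1 was at 3.95 ± 1.1 CPM in young and 3.9 ± 0.654 CPM in old, with overlapping groups and a log2 fold change of -0.02 ± 0.23 (SE) whose 95% interval ran from -0.48 to 0.43. Col2a1 and Col24a1, at 1.16 to 1.37 CPM, were not called either, with intervals of -0.91 to 0.69 and -0.63 to 0.95. Col11a1 had 6 counts over the 6 libraries and did not pass the filter.

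Markers of fibroblasts and pericytes, cells that make collagens I, III and V in lung, are given beside these genes, with the collagens left out of the list. Of 18 markers 12 were tested, 4 rose, 4 fell and 4 were not called, where 19.6% of all genes tested rose and 20.4% fell. The list summed to 229 to 232 CPM in young and 192 to 199 CPM in old. Pdgfrb, a receptor of pericytes and fibroblasts, rose from 2.57 ± 0.272 to 4.83 ± 0.101 CPM, and Thy1, Cspg4 and Mfap5 rose from means below 2 CPM. Dcn, the fibril-binding proteoglycan decorin, fell from 23.2 ± 0.42 to 12.5 ± 0.32 CPM, as did Tnxb, Pi16 and Pdgfra. Pdgfra made up most of the sum (158 ± 2.39 CPM in young), and it was also present in the cultured cells, at 16.9 CPM in young IFE. Lum, Tcf21, Des, Rgs5, Myh11 and Clec3b were under 1 CPM in both groups, and no marker of the list was at 0 in all 6 libraries. For 9 of the 18 markers, Dcn and Pdgfrb among them, the culture table has no row, and it has none for Col1a2 and Col3a1. The part of these markers in the collagen results was not tested.

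Promoters are shown for Col1a2 and Col3a1, whose RNAs rose together, and below for the neighbouring pairs of Col4 and Col6. They are RefSeq sequences on GRCm38.p6 from 250 bases before to 50 after the gene's start, 5′ to 3′ on the gene's strand, from a table that held a window for 32 of the 39 collagen genes (34 windows) and none for Col1a1. Capitals mark matches, on either strand, to the CCAAT box (CCAAT), the GC box (GGGCGG), the TATA box (TATAAA), the AP-1 motif (TGANTCA) and the TEAD motif (GGAATG), and adjoining matches can share letters. Among all 32851 windows of that table, 37.4% held CCAAT, 35.7% GGGCGG, 13.6% TATAAA, 7.81% TGANTCA and 14.7% GGAATG. Of the 34 collagen windows, these motifs were in 11, 22, 5, 1 and 5. The collagen windows were not tested against the rest. Matches are to the letters alone, and whether they act was not tested. The Col1a2 window (chr6:4505368-4505667, plus strand) holds CCAAT matches at -109 and 0 bases from the start and GGGCGG matches at -205 and -188. The Col3a1 window (chr1:45311288-45311587, plus strand) holds a TATAAA match at -117 and a GGAATG match at -168.
Col1a2: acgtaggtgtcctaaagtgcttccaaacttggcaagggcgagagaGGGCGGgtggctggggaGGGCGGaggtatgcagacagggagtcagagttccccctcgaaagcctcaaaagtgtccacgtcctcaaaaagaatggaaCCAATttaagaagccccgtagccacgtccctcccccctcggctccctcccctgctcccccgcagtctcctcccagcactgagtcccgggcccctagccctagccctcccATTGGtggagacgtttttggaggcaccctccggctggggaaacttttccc
Col3a1: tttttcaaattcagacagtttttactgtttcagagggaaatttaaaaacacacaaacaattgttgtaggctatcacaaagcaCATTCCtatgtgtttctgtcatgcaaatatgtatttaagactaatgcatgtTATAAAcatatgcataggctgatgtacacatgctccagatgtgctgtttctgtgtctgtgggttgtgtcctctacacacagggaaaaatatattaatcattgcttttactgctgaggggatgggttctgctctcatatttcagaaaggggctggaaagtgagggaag

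Among the Col4 chains, the pair that forms the common basement membrane network rose and the Col4a5 chain fell. Col4a1 (ENSMUSG00000031502, chromosome 8, 11248423 to 11362826, minus strand) was at 451, 453 and 451 CPM in young and 554, 555 and 569.9 CPM in old libraries. Col4a2 (ENSMUSG00000031503, chromosome 8, 11362805 to 11499287, plus strand) was at 259.8, 243 and 255 CPM and 342, 340.2 and 349 CPM. For both genes the old libraries all lay above the young ones. The log2 fold change was 0.31 ± 0.02 (SE, edgeR adjusted p = 9.28e-21) for Col4a1 and 0.44 ± 0.03 (SE, edgeR adjusted p = 2.87e-25) for Col4a2. When tested against a fold of 1.2 in place of 0, Col4a1 missed the threshold (edgeR adjusted p = 0.0547, range over all settings 2.99e-31 to 0.0547) and Col4a2 did not. The FPKM ratio of Col4a1 to Col4a2 was 1.59 ± 0.0575 in young and 1.45 ± 0.0062 in old (SD, n = 3 each).

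Col4a5 (ENSMUSG00000031274, chromosome X, 140258381 to 140472230, plus strand), whose protein joins the networks of kidney, lung and inner ear basement membranes, was at 59.3, 61.2 and 65.5 CPM in young and 39.4, 40.2 and 44.7 CPM in old. Every old library was below every young one, and the log2 fold change was -0.58 ± 0.06 (SE, edgeR adjusted p = 4.27e-13). The FPKM ratio of Col4a1 to Col4a5 went from 6.57 ± 0.338 to 12.2 ± 0.628 (SD, n = 3 each). Col4a6, the partner of Col4a5 in some networks and its neighbour on the X chromosome, 1308 bases away and on the other strand, was at 4.08, 3.27 and 3.38 CPM in young and 6.55, 3.55 and 5.21 CPM in old. The groups overlapped, and the log2 fold change of 0.50 ± 0.22 (SE, edgeR adjusted p = 0.0638) missed the threshold. Col4a4 was at 0.588 ± 0.18 and 0.716 ± 0.251 CPM and was not called, with a 95% interval of -0.73 to 1.36. Col4a3 had 20 counts in all and was not tested.

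Col4a1 and Col4a2 lie head to head on chromosome 8, and in the files' coordinates their bodies overlap by 22 bases on opposite strands. The sources name both a directional and a non-directional library type, so reads in overlaps cannot be assigned with certainty. In all, 11 of the 39 collagen genes overlap another gene of the tables, and in vivo the overlapping genes were under 2 CPM except the other Col4 chain, Slc19a1 at Col18a1, Nt5dc1 at Col10a1 and 9230112E08Rik at Col20a1. Their promoter windows, shown because the 2 genes are read outward from a common stretch, share 78 bases. Each holds a CCAAT match and at least 1 GGGCGG match. The 1 GGGCGG match of the Col4a1 window lies in the shared bases and is also the last match of the Col4a2 window. The Col4a1 window is chr8:11312777-11313076, minus strand, and the Col4a2 window is chr8:11312555-11312854, plus strand.
Col4a1: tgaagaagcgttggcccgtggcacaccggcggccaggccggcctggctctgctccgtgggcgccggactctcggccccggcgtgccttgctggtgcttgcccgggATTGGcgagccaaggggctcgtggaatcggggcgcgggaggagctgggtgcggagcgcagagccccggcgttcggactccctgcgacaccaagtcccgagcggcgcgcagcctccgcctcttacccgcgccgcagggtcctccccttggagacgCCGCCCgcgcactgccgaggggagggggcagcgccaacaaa
Col4a2: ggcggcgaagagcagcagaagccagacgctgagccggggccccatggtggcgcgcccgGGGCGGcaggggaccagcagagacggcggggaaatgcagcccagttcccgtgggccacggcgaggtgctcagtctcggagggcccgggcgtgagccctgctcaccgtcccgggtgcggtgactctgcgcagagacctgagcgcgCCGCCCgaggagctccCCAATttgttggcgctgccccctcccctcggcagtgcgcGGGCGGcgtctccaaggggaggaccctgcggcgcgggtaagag

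Col6 showed the reverse of the Col4a1 and Col4a2 pattern, in that its 2 abundant chains fell. Col6a1 (ENSMUSG00000001119, chromosome 10, 76544626 to 76562002, minus strand) was at 718, 701 and 698 CPM in young and 545, 549 and 531 CPM in old libraries. The groups were far apart, with a log2 fold change of -0.38 ± 0.02 (SE, edgeR adjusted p = 7.6e-28). Col6a2 (ENSMUSG00000020241, chromosome 10, 76431596 to 76459464, minus strand), 85161 bases from Col6a1 on the same strand, was at 181, 176 and 175 CPM in young and 125, 120.5 and 118 CPM in old. All old libraries were lower, and the log2 fold change was -0.55 ± 0.04 (SE, edgeR adjusted p = 7.92e-24). The third chain of the usual trimer, Col6a3 (ENSMUSG00000048126, chromosome 1, 90693645 to 90771693, minus strand), was at 13.6, 13.1 and 16.2 CPM in young and 13.2, 14.7 and 14.8 CPM in old. Its groups overlapped and it was not called, with a log2 fold change of -0.0058 ± 0.12 (SE, edgeR adjusted p = 0.975) and a 95% interval of -0.24 to 0.23, which does not reach the estimates of Col6a1 and Col6a2. The difference between the genes was not tested.

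Per length the 3 chains were unequal. The FPKM ratio of Col6a1 to Col6a2 was 7.57 ± 0.0216 in young and 8.51 ± 0.191 in old (SD, n = 3 each). Its size depends on the authors' gene lengths, 4380 bases for Col6a1 and 8326 for Col6a2, and is not a measured stoichiometry. Col6a3 was lower still, at 1.07 ± 0.125 and 1.06 ± 0.0663 FPKM. Col6a4, Col6a5 and Col6a6, which can take the place of the third chain, had 9, 8 and 22 counts over the 6 libraries and were not tested. The Col6a1 window (chr10:76725995-76726294, minus strand) was the single one of the 34 collagen windows with a TGANTCA match. For Col6a2 the table holds 2 windows, and the one printed (chr10:76623355-76623654, minus strand) has GGGCGG and GGAATG matches. The other (chr10:76623581-76623880, minus strand) has 1 GGGCGG match and no GGAATG match.
Col6a1: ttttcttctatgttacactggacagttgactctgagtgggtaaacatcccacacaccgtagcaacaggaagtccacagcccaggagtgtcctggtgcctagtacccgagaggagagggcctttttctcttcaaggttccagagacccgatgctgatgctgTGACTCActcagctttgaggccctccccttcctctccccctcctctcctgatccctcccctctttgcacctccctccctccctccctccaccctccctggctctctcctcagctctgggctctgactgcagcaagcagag
Col6a2: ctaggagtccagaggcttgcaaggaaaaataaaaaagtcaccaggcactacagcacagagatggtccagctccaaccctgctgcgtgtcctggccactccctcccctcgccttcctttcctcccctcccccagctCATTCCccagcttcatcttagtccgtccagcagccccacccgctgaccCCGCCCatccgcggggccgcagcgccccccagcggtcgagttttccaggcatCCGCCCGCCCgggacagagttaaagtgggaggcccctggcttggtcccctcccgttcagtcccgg

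Among the other types, the abundant chains at epithelial and vascular basement membranes were slightly higher in old. Col18a1, a multiplexin of basement membranes whose cleaved end is endostatin, was at 866, 865 and 889.6 CPM in young and 1108, 1041 and 1072 CPM in old libraries. There was no overlap, and the log2 fold change was 0.30 ± 0.02 (SE, edgeR adjusted p = 1.54e-23). Slc19a1 overlaps Col18a1 on the other strand by 8825 bases in the files' coordinates, at 32.8 CPM against 974 CPM for Col18a1 in vivo. Col7a1, the anchoring fibril collagen that ties epithelia to the stroma beneath, was at 466, 453 and 466 CPM and 497, 497 and 509 CPM. Col8a1, a short-chain collagen of vessel walls and the cornea, was at 239, 240.2 and 246 CPM and 272, 275 and 272 CPM. Both were higher in every old library, though by little, with log2 fold changes of 0.12 ± 0.02 (SE, edgeR adjusted p = 3.55e-05) and 0.18 ± 0.03 (SE, edgeR adjusted p = 6.45e-07). Tested against a fold of 1.2, none of Col18a1, Col7a1 and Col8a1 was called, and neither was Col16a1 (edgeR adjusted p = 0.0982 for Col18a1 and 1 for the other three). Over all settings the adjusted p of Col18a1 ran from 1.93e-34 to 0.0982, that of Col7a1 from 1.53e-05 to 1, that of Col8a1 from 3.36e-07 to 1 and that of Col16a1 from 1.32e-11 to 1.

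The FACIT collagens, which coat fibrils without forming them, did not move as a group. Col12a1 rose from 16.4, 17.0 and 18.1 CPM to 24.5, 26.3 and 27.4 CPM, with no overlap and a log2 fold change of 0.60 ± 0.10 (SE, edgeR adjusted p = 1.5e-07). Col14a1 fell from 13.8, 14.2 and 14.0 CPM to 2.24, 2.64 and 3.99 CPM. This was the steepest fall among the 20 called collagens, at -2.24 ± 0.17 (SE, edgeR adjusted p = 2.92e-21) on the log2 scale. All 13 tested macrophage markers were lower in the same libraries, while the fibroblast and pericyte list was split, with Dcn, Tnxb, Pi16 and Pdgfra lower and Pdgfrb, Thy1, Cspg4 and Mfap5 higher. The part of these cells in the Col14a1 result was not tested. Col16a1 went from 246, 249 and 244 CPM to 216, 207 and 204 CPM, lower in every old library, by -0.24 ± 0.03 (SE, edgeR adjusted p = 5.79e-10). Col20a1 was low and fell further, from 4.23, 5.37 and 3.91 CPM to 1.21, 1.53 and 1.22 CPM, again without overlap, by -1.75 ± 0.28 (SE, edgeR adjusted p = 1.22e-07) on the log2 scale. It shares 741 bases and a strand with the non-coding gene 9230112E08Rik, so its counts are uncertain. Col9a3 was at 1.26 ± 0.362 and 1.27 ± 0.181 CPM and was not called.

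Col15a1, the multiplexin related to Col18a1, rose from 4.6, 4.9 and 4.96 CPM to 9.91, 7.1 and 7.73 CPM, with all old libraries higher and a log2 fold change of 0.76 ± 0.18 (SE, edgeR adjusted p = 0.000205). Col17a1, the transmembrane collagen of hemidesmosomes, was at 3.00 ± 0.914 CPM in young and 2.84 ± 1.21 CPM in old and was not called (95% interval -0.65 to 0.43). Col8a2 was not called either. Col9a2, Col10a1, Col13a1, Col23a1 and Col28a1 had 5 to 44 counts over the 6 libraries and did not pass the filter.

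Among genes that modify, fold, export and trim collagen chains, more fell than rose in old. In a list of 32 such genes 29 were tested, of which 15 fell, 3 rose and 11 were not called, with a median log2 fold change of -0.16. That is 15 of 29 against the 20.4% of all genes tested that fell. P4ha1, the catalytic subunit of the prolyl 4-hydroxylase that stabilises the triple helix, fell from 244 ± 3.07 to 141 ± 9.69 CPM, by -0.79 ± 0.04 (SE, edgeR adjusted p = 3.84e-35) on the log2 scale. P4ha2, an alternative subunit, fell from 44.8 ± 0.505 to 37.0 ± 1.81 CPM. The lysyl hydroxylases Plod1, Plod2 and Plod3 all fell, Plod1 from 90.8 ± 4.65 to 56.0 ± 0.339 CPM, Plod2 from 175 ± 6.4 to 146 ± 2.55 CPM and Plod3 from 242 ± 2.7 to 172 ± 3.4 CPM. Serpinh1, the collagen chaperone HSP47, fell from 374 ± 8.79 to 293 ± 13.1 CPM, by -0.35 ± 0.03 (SE, edgeR adjusted p = 2.9e-19). In the other direction, Bmp1, the protease that removes the C-terminal propeptide of fibrillar collagens, rose from 598 ± 8.25 to 873 ± 6.98 CPM, by 0.55 ± 0.02 (SE, edgeR adjusted p = 3.59e-41). Tested against a fold of 1.2, 5 of the 15 lower genes were still called.

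The lists of cross-linking enzymes, receptors and partners are short, and their counts stand against the 19.6% of all genes tested that rose in vivo and the 20.4% that fell. Of 5 lysyl oxidases, Lox rose from 3.95 ± 1.55 to 7.19 ± 0.306 CPM and Loxl2 from 1.6 ± 0.444 to 3.4 ± 0.242 CPM, while the more abundant Loxl4 fell from 183 ± 2.57 to 152 ± 7.87 CPM, and 2 were not called. All 8 tested collagen receptors were called, 5 higher and 3 lower. The integrin subunits Itga2 and Itgb1, which pair into a collagen receptor of epithelia, rose from 83.6 ± 2.57 to 142 ± 5.52 CPM and from 1114 ± 17.4 to 1243 ± 23.8 CPM. Ddr2, a receptor kinase for fibrillar collagen, fell from 281 ± 5.59 to 238 ± 6.73 CPM. Lair1, an inhibitory collagen receptor of leukocytes, fell from 21.4 ± 1.42 to 1.22 ± 0.246 CPM, in the libraries in which the macrophage markers were lower, and the part of those cells in it was not tested.

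Of the basement membrane partners of Col4, 8 of 12 tested rose, 2 fell and 2 were not called, where 19.6% of all genes tested rose and 20.4% fell. Lamb3, a laminin beta chain, rose from 64.0 ± 1.56 to 164 ± 8.58 CPM, and Lama3, a laminin alpha chain, from 66.7 ± 2.05 to 139.8 ± 3.25 CPM. Lama5 rose from 1907 ± 31.4 to 2108 ± 41.1 CPM, by 0.14 ± 0.02 (SE, edgeR adjusted p = 1.39e-11). Among fibril regulators and matrix glycoproteins, against the same shares, 4 of 10 rose, 3 fell and 3 were not called. Tnc, tenascin C, rose from 55.4 ± 1.68 to 117 ± 3.74 CPM, Fn1, fibronectin, from 9813 ± 40.3 to 11105 ± 30.8 CPM and the proteoglycan Bgn from 11.1 ± 0.606 to 21.5 ± 1.06 CPM, while Tnxb fell from 27.9 ± 0.681 to 15.1 ± 1.37 CPM. Of the collagen-cleaving proteases, again against these shares, 4 of 7 rose, 2 fell and 1 was not called. Mmp9, a gelatinase, rose from 166 ± 5.8 to 368 ± 4.22 CPM, Mmp13, a collagenase, fell from 49.7 ± 1.7 to 27.3 ± 2.74 CPM, and Ctsk and Mmp2 rose to means of 5.21 and 5.19 CPM.

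Summed over all 39 genes, collagens took 4022 ± 38.3 CPM in young and 4239.6 ± 57.9 CPM in old lungs (SD, n = 3 each). The class sums show how the composition shifted. Col4 went from 771 ± 8.3 to 951 ± 16.2 CPM and Col6 from 898 ± 13.0 to 677 ± 12.1 CPM, both without overlap. The fibrillar sum was 484 ± 12.8 CPM in young and 509.7 ± 18.6 CPM in old, with overlapping groups. The other types went from 1869.9 ± 19.6 to 2101 ± 37.9 CPM. No test is given for these sums.

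**Figure D3:**
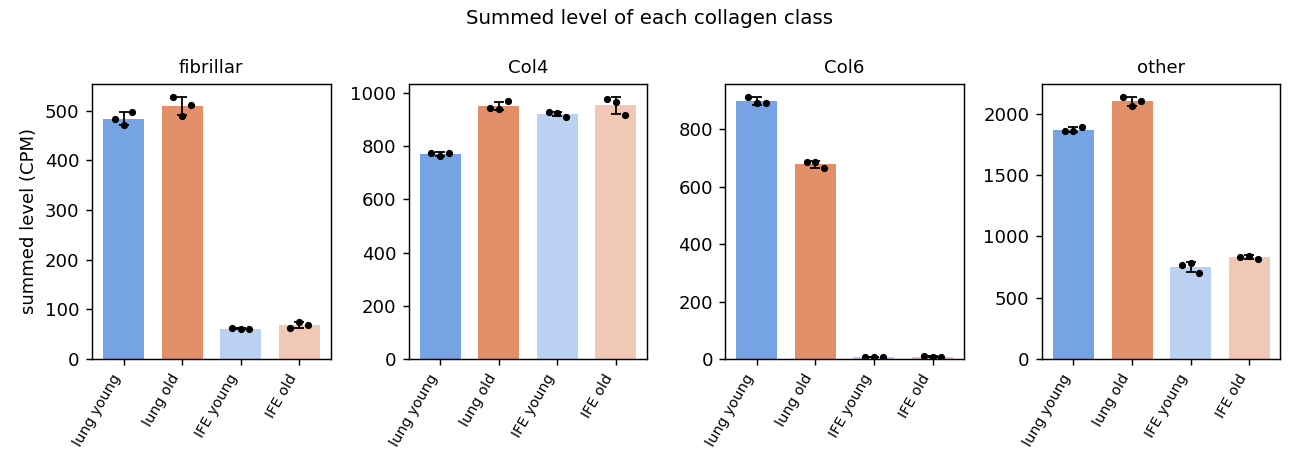
Summed level (CPM) of the collagen genes of each class in the 4 groups; bars are means of 3 libraries, error bars SD and dots libraries, and the y axes differ between panels and start at 0. Col6 fell from 898 to 677 CPM between young and old lungs and was at 7.96 and 8.65 CPM in culture, while Col4 was between 771 and 953 CPM in all 4 groups.

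In culture, old IFE and young IFE were not separated by any collagen gene in edgeR's quasi-likelihood test. Of the 31 genes 19 were tested and 0 were called, where 0.0839% of all 13118 genes tested were called. At an unadjusted p under 0.05 there were 3 of 19, against 929 of all genes. The groups did not overlap for 4 of the 19, against 13.1% of all genes tested, and 14 of the 19 log2 fold changes were positive, with a median of 0.14 (0.0051 for all genes). The 3 were Col8a1, Col7a1 and Col5a1, and the fourth gene without overlap was Col4a6. The filter on low counts left out 12 genes, Col5a2, Col5a3, Col14a1, Col15a1 and Col17a1 among them.

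Col8a1 and Col7a1 came closest to a call. Col8a1 was at 112, 117 and 119 CPM in young IFE and 139, 136 and 174 CPM in old IFE. Every old IFE library was higher, replicate 3 most of all, and the log2 fold change was 0.37 ± 0.09 (SE, edgeR adjusted p = 0.396). Col7a1 was at 211, 205 and 179 CPM and 234, 271 and 222 CPM, also without overlap, with a log2 fold change of 0.29 ± 0.09 (SE, edgeR adjusted p = 0.535). DESeq2 called both (adjusted p = 0.00554 for Col8a1 and 0.0431 for Col7a1), as did edgeR with no filter on low counts, and Col8a1 was called without old IFE replicate 3 (edgeR adjusted p = 0.00315). Over all settings the adjusted p ran from 2.08e-08 to 1 for Col8a1 and from 2.77e-06 to 1 for Col7a1.

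Other genes called in the lung were not called in culture, and the intervals of several were wide. Col4a1 was at 511, 505 and 498 CPM in young IFE and 523, 518 and 502 CPM in old IFE, and Col4a2 at 382, 384 and 374 CPM and 413, 406 and 380.2 CPM. Both overlapped between groups, and the 95% intervals of their log2 fold changes were -0.04 to 0.10 and -0.0074 to 0.15. Col18a1 was at 350.1, 360.1 and 323 CPM and 357, 341 and 329 CPM, with an interval of -0.10 to 0.08. These intervals lie below the lung estimates of 0.31, 0.44 and 0.30. Col6a1 was low in culture, at 7.64, 6.76 and 7.00 CPM and 9.31, 7.75 and 6.98 CPM, with overlap and an interval of -0.15 to 0.49. Col5a1 was at 49.3, 47.6 and 44.1 CPM and 50.5, 59.2 and 53.2 CPM. All its old IFE libraries were higher, but the log2 fold change of 0.21 ± 0.08 (SE, edgeR adjusted p = 0.553) did not pass. For Col1a1, at 1.7, 1.06 and 0.921 CPM and 1.65, 1.4 and 1.47 CPM, the interval of -0.42 to 1.02 was too wide to separate a rise like that of the lung from none. Of Col6a2 there were 64 counts in all 6 libraries, Col5a2 had 2 and Col15a1 had 4.

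The pathway lists gave no call in culture either. The counts of these lists stand against 0.0839% of all 13118 genes tested that were called, and 929 with an unadjusted p under 0.05. In edgeR's quasi-likelihood test 0 of 27 collagen biosynthesis genes were called, and 4 had an unadjusted p under 0.05. For lysyl oxidases, receptors, basement membrane partners, fibril regulators and proteases 0 were called of 2, 7, 9, 7 and 3, with 0, 1, 2, 1 and 2 at an unadjusted p under 0.05. DESeq2 called 0 in 5 of these lists and 1 fibril regulator, Thbs1, and its called share over all genes is not given.

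Whether the change between old and young itself differed between lung and culture was tested with an interaction term over all 12 libraries, for the 26 collagen genes that passed the joint filter. Of the 26, 19 had passed the filter in culture too, and Col2a1, Col5a2, Col5a3, Col14a1, Col15a1, Col17a1 and Col24a1 in lung only. In all, 11 of the 26 were called, 4 with a more positive change in vivo and 7 with a more negative one. Of the genes that passed in lung only, Col14a1 was called. Over all 14318 genes tested the called share was 17.5%, with 9.10% more positive and 8.37% more negative. The 4 were Col4a1, by a difference in log2 fold change of 0.28 ± 0.05 (SE, edgeR adjusted p = 4.49e-05), Col4a2, by 0.37 ± 0.05 (SE, edgeR adjusted p = 6.15e-06), Col18a1, by 0.30 ± 0.05 (SE, edgeR adjusted p = 7.97e-05), and Col12a1, by 0.61 ± 0.20 (SE, edgeR adjusted p = 0.0256). The Col12a1 call was lost on leaving out any 1 of 8 libraries, with an adjusted p of 0.0547 to 0.138. Against a difference of 1.2-fold in place of 0, 0 of the 4 were called, and 5 of the 7, where the calls of Col16a1 (edgeR adjusted p = 0.221) and Col11a2 (0.0842) were lost. Among the 7, Col5a1 differed by -0.69 ± 0.07 (SE, edgeR adjusted p = 1.86e-08), Col4a5 by -0.70 ± 0.12 (SE, edgeR adjusted p = 4.84e-05) and Col6a1 by -0.56 ± 0.10 (SE, edgeR adjusted p = 9.71e-05). All 4 groups shared a common estimate of the spread in this fit, although the settings differ in spread. For Col6a1 the SE of 0.10 is smaller than that of the culture change alone, 0.16. The SEs and p-values of the differences may therefore be too small.

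Col11a2, Col14a1, Col16a1 and Col20a1 were the remaining 4 with a more negative change in vivo. Col14a1 had 11 counts over the 6 culture libraries, so its difference of -3.44 ± 0.95 (SE, edgeR adjusted p = 0.00949) rests on counts near 0, and it was not called without old IFE replicate 3 (edgeR adjusted p = 0.0582). The Col11a2 call was lost without replicate 3 of in vivo young (0.0769) or of in vivo old (0.0548). The fibrillar chain Col1a1 was not called, with a difference of 0.49 ± 0.29 (SE, edgeR adjusted p = 0.257). Neither was Col6a2, with -0.35 ± 0.56 (SE, edgeR adjusted p = 0.731). Col5a2 was not called either, with 3.75 ± 1.81 (SE, edgeR adjusted p = 0.159) and only 2 counts over the culture libraries. Col1a2, Col3a1 and Col6a3 have no row in the culture table, so their difference was not tested. The lowest summed count of any gene listed in culture was 2, so genes not listed there may have had fewer reads. In the list of collagen biosynthesis genes 2 were more positive and 11 more negative of 28 tested, where 9.10% of all genes tested were more positive and 8.37% more negative. Plod3, P4ha1 and Plod1 had more negative changes in vivo, by -0.59 ± 0.06, -0.86 ± 0.09 and -0.94 ± 0.12 (SE), and Bmp1 a more positive one, by 0.35 ± 0.06 (SE).

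**Figure D4:**
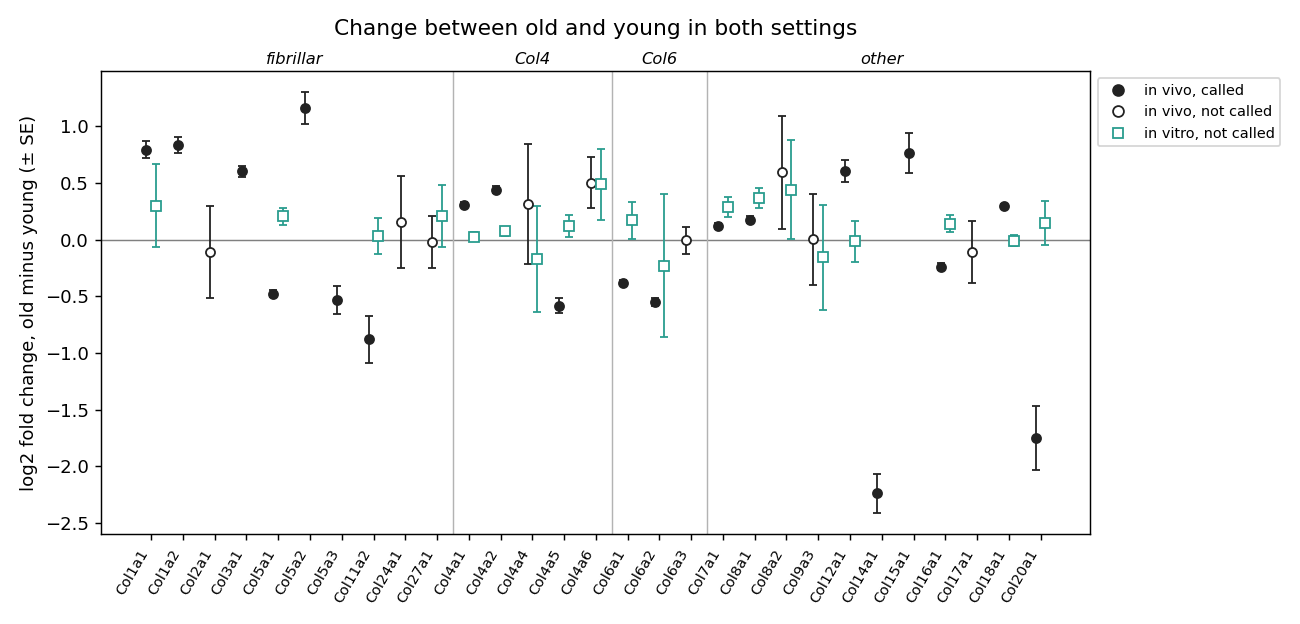
Log2 fold change of old over young, with its SE, for the 29 collagen genes tested in vivo (circles) and those of them tested in vitro (squares), by class; filled symbols were called at an adjusted p under 0.05. Of the 19 in vitro estimates 14 are positive, with a median of 0.14, and none was called; in vivo Col14a1 (-2.24) and Col5a2 (1.16) mark the ends of the range.

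The levels in lung and culture are set side by side and were not tested. The CPM were scaled separately for each setting, and the settings differ in medium, time and host, whose parts cannot be told apart. Of 14 collagen genes with 2 CPM or more in both tables, 10 had the higher mean in the lung among the young groups and 11 among the old. A mean of 2 CPM or more was reached by 24 collagen genes in the lung and by 14 in culture. Lung genes that were low in culture, or have no row there, are thus left out of this count. Among them were Col6a2, at 177 CPM in young lungs and 0.781 CPM in young IFE, and Col1a1, at 61.3 and 1.23 CPM. Col6a1 stood at 706 ± 11.1 CPM in young lungs and 7.13 ± 0.451 CPM in young IFE, a ratio of 98.9. Col5a1 was 6.09 times, Col16a1 3.32 times, Col18a1 2.54 times and Col7a1 2.33 times as high in young lungs as in young IFE. Col4a1 and Col4a2 were at 0.895 and 0.665 of their young IFE level in young lungs and at 1.09 and 0.859 of their old IFE level in old lungs. In culture, Col4a1 and Col4a2 were the most abundant collagens per length, at 67.4 ± 0.693 and 57.2 ± 0.676 FPKM in young IFE, and their FPKM ratio was 1.18 ± 0.0116. The FPKM ratio of Col4a1 to Col4a5 in culture, 13.9 ± 1.2 in young and 13.1 ± 1.45 in old IFE, was nearer to that of old lungs than to that of young lungs. Summed over all collagen genes, cultured cells had 1737 ± 49.6 CPM in young IFE and 1862 ± 45.2 CPM in old IFE.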

How the data were processed

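Poly-A RNA of 12 libraries was sequenced. Per the submitters' processing notes, HISAT2 2.0.5 and featureCounts 1.5.0-p3 were used, with a human build named although the rows are mouse genes. The authors deposited raw counts, normalized signal (counts divided by a size factor) and FPKM for each setting. The count table as used here lacks in vivo young replicate 3, so its reads were recovered from the deposited normalized signal (100.0% of values whole within 0.001 reads), which departs from the plan. The same step returned 100.0% of the deposited counts of the other 11 libraries.

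Old and young were compared within the 6 libraries of a setting with edgeR 4.0.16 (R 4.3.3, quasi-likelihood F-test, TMM, filterByExpr, robust), and the difference as an interaction over 12. The interaction fit used a common estimate of the spread for all groups. P-values were adjusted by Benjamini-Hochberg over all genes tested, and a call is an adjusted p under 0.05. DESeq2 1.42.0, limma 3.58.1 on log2(FPKM + 0.1) and log2(FPKM + 1), a test against a fold of 1.2, RLE scaling, no filter, the replicate number as a block, and leaving out each library were alternatives. The fit was tested on simulated data.

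Members and lists were chosen with earlier results of these data known. Values per library are given for called members at 2 CPM or more and for Col1a1, Col1a2, Col3a1, Col4a1, Col4a2, Col6a1, Col6a2 and Col6a3. From each list up to 4 genes of lowest p are named, plus Serpinh1, P4ha1, P4ha2 and Plod2. Marker genes, overlapping genes and Thbs1 were named after their values were seen. Intervals are the estimate ± 1.96 SE. One gene of the basement membrane list is counted with that list but is not reported here by name.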

Additional observations from a re-analysis of the deposited data

Results flagged for a closer look

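For 11 of 26 collagen genes the interaction test called a difference in the old-against-young change between lung and culture. Over all 14318 genes tested the called share was 17.5%. A positive value means a more positive log2 change in the lung. Col4a1 differed by 0.28, Col4a2 by 0.37, Col18a1 by 0.30 and Col12a1 by 0.61. In the other direction, Col5a1 differed by -0.69, Col4a5 by -0.70, Col6a1 by -0.56, Col16a1 by -0.38, Col11a2 by -0.92, Col20a1 by -1.90 and Col14a1 by -3.44. Col14a1 had 11 counts over the culture libraries. All groups shared a common estimate of the spread, so the p-values may be too small. Against a difference of 1.2-fold in place of 0, Col4a1, Col4a2, Col18a1, Col12a1, Col16a1 and Col11a2 were not called.

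Leaving out 1 library ended the call for 3 of the 11 genes. Col12a1 was lost without in vivo young replicate 1 (edgeR adjusted p = 0.0749) or 2 (0.0633), without in vivo old replicate 2 (0.0626) or 3 (0.0762), without young IFE replicate 2 (0.0812) or 3 (0.138), and without old IFE replicate 1 (0.0547) or 2 (0.0594). Col11a2 was lost without in vivo young replicate 3 (0.0769) or in vivo old replicate 3 (0.0548), and Col14a1 without old IFE replicate 3 (0.0582). Over all settings the adjusted p ran from 0.00196 to 0.166 for Col12a1, from 0.00632 to 0.0842 for Col11a2 and from 0.00533 to 0.0582 for Col14a1.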

How the results depend on the processing

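For the 20 collagen genes called in vivo, direction held under every alternative run, and 255 values kept their side of the threshold. A further 5 were lost in the test against a fold of 1.2, under which 7 collagens were higher in place of 11, 5 biosynthesis genes lower in place of 15, and 0 more positive in the difference in place of 4. With 1 library left out, 11 to 12 collagens were higher and 9 lower in vivo, 2 to 3 biosynthesis genes were higher and 14 to 17 lower, and in the difference 3 to 5 collagens were more positive and 6 to 8 more negative. In culture 2 collagens were higher with no filter on low counts and 2 with DESeq2, and 0 to 1 with 1 library left out. For biosynthesis genes it was 1 with no filter and 0 to 1 with 1 library left out. The 1 in each case came without old IFE replicate 3. Shares called over all genes are not given for the alternatives, so their counts have no background beside them. Direction turned for 3 culture estimates near 0. With 1 library left out, Col11a2 ran from -0.057 to 0.20, Col12a1 from -0.21 to 0.12 and Col18a1 from -0.052 to 0.022, and Col12a1 was 0.0032 with limma on log2(FPKM + 0.1). The causes were not tested. Equal replicate numbers did not pair the libraries (correlations of deviations -0.03 to 0.03 between libraries of equal number). With the replicate number as a block, 11 collagens were higher and 9 lower in vivo, 0 were called in vitro, 4 were more positive and 8 more negative in the difference, and Col12a1 in culture was 0.0091. Depth limits the scarce chains, and the 5 tested collagens under 2 CPM in vivo had an SE of 0.40 to 0.53.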
